A study of Mus musculus with 6 samples.

Results

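The neurotransmitter receptors of N2a cells, a mouse neuroblastoma line, were examined after knockdown of circRtn4, a circular RNA formed from exons of Rtn4. Members were chosen by gene symbol: the protein-coding genes of the ionotropic glutamate (Gria, Grik, Grin), metabotropic glutamate (Grm), GABA-A (Gabr), glycine (Glra, Glrb), nicotinic (Chrn), muscarinic (Chrm), serotonin (Htr), dopamine (Drd), adrenergic (Adra, Adrb) and purinergic (P2rx, P2ry) families. The rule took 113 of the 22046 protein-coding genes among 54532 genes listed. No expression value entered it. The GABA-B receptors, the delta glutamate receptors and the accessory proteins of receptors lie outside these symbols and were read from a separate list at the end.

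Of the samples, 3 received si-NC, the control siRNA, and 3 received si-circRtn4, an siRNA against the circular RNA. All 6 carry the same strain label, C57BL/6, and the growth medium named for all of them is MEM with fetal bovine serum. The general methods of the study describe retinoic acid differentiation of transfected N2a cells, and whether these libraries passed through it is not stated. The labels number the libraries without saying that each came from a separate culture, so p-values measure the spread between these libraries, which may be technical. N2a is 1 tumour line, and its receptors need not be those of a neuron in the brain.

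The values were FPKM, reads scaled to gene length and to library size, and the libraries held 13541198 to 15122063 reads recovered from them. Libraries of the same group correlated at 0.980 to 0.986 across genes and libraries of different groups at 0.967 to 0.977. Rtn4, whose linear and circular RNA cannot be told apart in these gene values, was at 61.0, 66.8 and 69.8 FPKM in si-NC and at 50.1, 56.7 and 62.7 FPKM in si-circRtn4. The groups overlapped, with a log2 difference of -0.22 (SE 0.10, limma adjusted p = 0.216, or 0.0447 with the replicate number as a block). All 12 markers of noradrenergic neuroblastoma and neurons exceeded 1 FPKM, while the astrocyte genes Aqp4 and Slc1a3 and the microglial gene Itgam were listed at 0. Of the 24 markers of 6 other cell types, Myh3, a developmental myosin, and Mbp, a myelin protein, exceeded 1 FPKM, and neither was called. The others were too low for the test. The summed level of the 4 fibroblast markers was 0.177 to 0.476 FPKM in si-NC and 0.480 to 0.786 FPKM in si-circRtn4. That of the 4 astrocyte markers was 0.178 to 0.422 and 0.0752 to 0.157 FPKM, and neither sum overlapped between the groups. The sums of the oligodendrocyte, microglia, endothelium and skeletal muscle markers did overlap. Among all genes tested, 16.2% were higher and 15.5% lower in si-circRtn4 without overlap. Of the 12 neuronal markers 5 were called lower and none higher, against 4.82% and 4.36% of all genes tested. The rest of the 12 were not called. The summed level of the 12 was 2618 to 2887 FPKM in si-NC against 1142 to 1658 FPKM in si-circRtn4. Chgb and Tubb3 had the highest mean levels in that sum, so it does not show a fall across all 12 markers. The part of these shifts in the receptor results was not tested.

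Neurotransmitter receptors are of 2 kinds. Ligand-gated channels are assembled from several subunits around a pore, so a channel of mixed subunits needs its partners to be made in the same cell. Some subunits, such as the nicotinic alpha7 of Chrna7, form channels on their own. G-protein-coupled receptors act through Gq, Gi or Gs proteins. Neuroblastoma derives from the sympathoadrenal lineage of the neural crest. Ganglion cells of that lineage receive acetylcholine through nicotinic channels built on the alpha3 subunit, whose gene stands beside those of alpha5 and beta4.

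Most of the receptor genes were silent or nearly so. Averaged over the libraries, 1 FPKM or more was reached by 17 of the 113 members (15.0%), against 10783 of all 22046 protein-coding genes (48.9%). A further 15 members (13.3%) lay between 0.1 and 1 FPKM, 43 (38.1%) above 0 and under 0.1 FPKM, and 38 (33.6%) at 0 in every library. The same 3 bands held 10.4%, 15.9% and 24.8% of all protein-coding genes. At these depths a count of 0 in a library allows up to 3 reads, or 0.0162 to 0.134 FPKM depending on gene length, a limit that covers counting error only. The members nearest the threshold were Gria2 at 1.08 FPKM, just inside it, and Chrnb1, the muscle-type beta1 subunit, at 0.838 FPKM, just outside it.

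**Figure D1:**
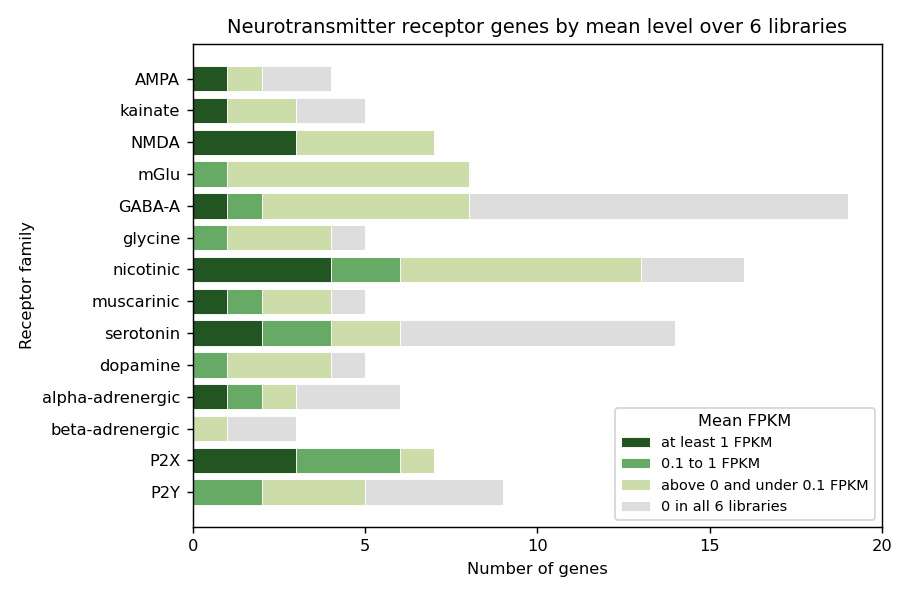
Number of member genes of each receptor family by mean level over the 6 libraries, in the bands 1 FPKM or more, 0.1 to 1 FPKM, above 0 and under 0.1 FPKM, and 0 in all libraries. The nicotinic family has 4 genes at 1 FPKM or more and the P2X and NMDA families 3 each, while the metabotropic glutamate, glycine, dopamine, beta-adrenergic and P2Y families have none.

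The nicotinic family had 4 of its 16 genes at 1 FPKM or more, the P2X channels 3 of 7, the NMDA subunits 3 of 7 and the serotonin receptors 2 of 14. Chrna3, the alpha3 subunit of ganglionic nicotinic channels, had the highest mean level of all members at 41.9 FPKM. Other high levels were those of Grik5 (32.8 FPKM), a kainate receptor subunit, Htr3a (22.3 FPKM), the A subunit of the serotonin-gated channel, and P2rx3 (16.0 FPKM), an ATP-gated channel of sensory neurons. A single gene could carry its family: Grik5 held 99.8 to 99.9% of the summed kainate FPKM in each library. These are levels per length, so they can be set side by side between genes.

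Partner subunits were often scarce. Grik5 encodes GluK5, which joins GluK1 to GluK3 to form a channel, and Grik1 to Grik3 all lay under 0.1 FPKM. Gabra5, an alpha subunit of GABA-A channels, stood at 0.0722 FPKM. Gabrd, the delta subunit of extrasynaptic GABA-A channels, reached 0.633 FPKM. The AMPA receptors, the fast glutamate channels, were represented by Gria2 alone, the subunit that makes the channel calcium-impermeable. The NMDA receptors had Grin1, the obligatory GluN1 subunit, at 2.17 FPKM, with Grin2d at 2.41 FPKM and Grin3b at 1.33 FPKM.

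For each of the 17 expressed members the si-NC and si-circRtn4 libraries were then compared by limma on log2(FPKM + 1), with p-values adjusted over all 12749 genes of the same table. The smallest two-sided exact permutation p of 3 libraries against 3 is 0.1, so that test cannot pass 0.05 for any single gene. At an adjusted p under 0.05, 1 member rose, Chrm4, and 5 fell, Chrna3, Chrna5, Chrna7, Htr3a and P2rx3. Among all genes tested 4.36% rose (556) and 4.82% fell (615), against 5.88% and 29.4% of the members. In bulk RNA, fewer cells of a type and less RNA per cell cannot be told apart. The median log2 difference was -0.18 over the 17 members and 0.0020 over all genes. Rescaled to TPM, 972 genes rose and 393 fell, or 592 and 538 with the gene Gm23935 left out of the scaling.

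**Figure D2:**
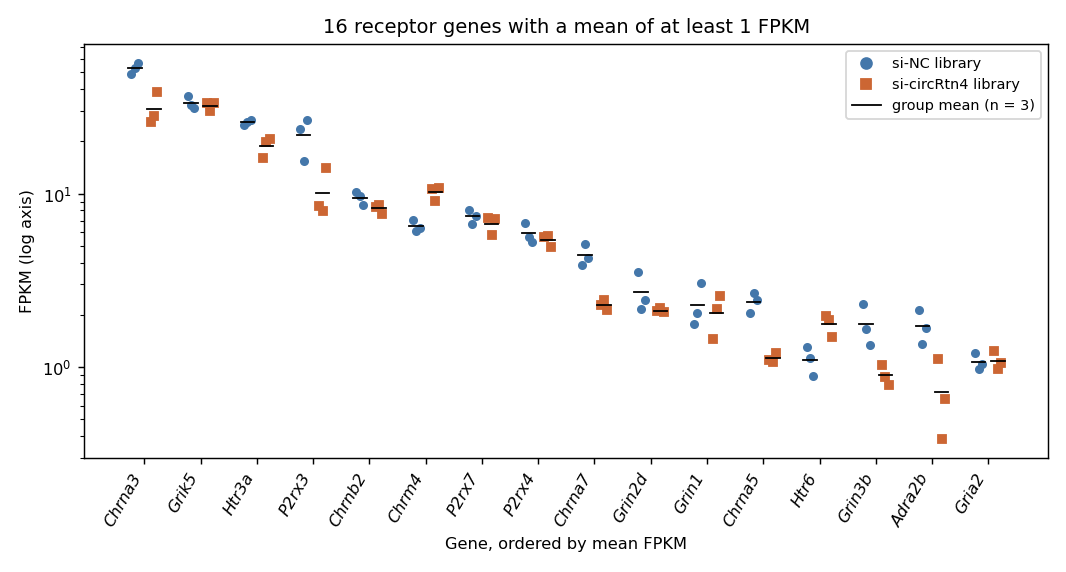
FPKM of 16 members averaging 1 FPKM or more in each of the 3 si-NC and 3 si-circRtn4 libraries, on a log axis, with the group means. Chrna3 has the highest mean in si-NC and Grik5 in si-circRtn4 (32.1 against 30.9 FPKM), and the 3 si-circRtn4 points of Chrna3, Chrna5, Chrna7, Htr3a and P2rx3 lie under the 3 si-NC points, while those of Chrm4 lie above.

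Separation of the libraries was seen in 9 members: all si-circRtn4 values lay below all si-NC values in 7 members (41.2%) and above them in 2 (11.8%). The shares for all genes tested were 15.5% below and 16.2% above. Of the 9, 3 were not called, Adra2b, Grin3b and Htr6. With the replicate number as a block, Adra2b (adjusted p = 0.0227) and Grin3b (0.0432) also passed, and all 6 members called without the block kept their calls. Calls among all 12749 genes increased with the block too, to 1185 higher and 1243 lower.

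**Figure D3:**
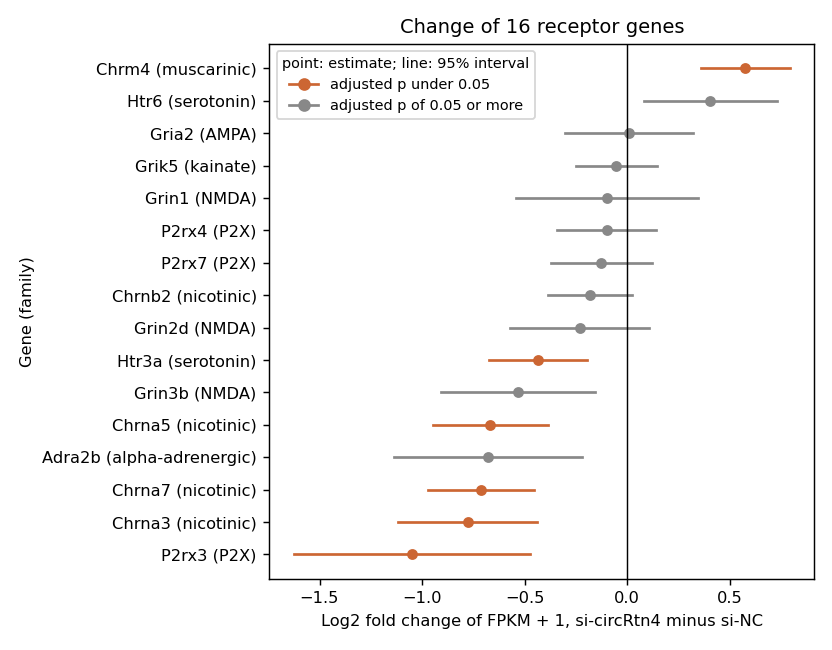
Log2 difference of si-circRtn4 against si-NC from limma on log2(FPKM + 1) for 16 expressed members, with 95% intervals as bars and called members marked. The 6 called members have intervals away from 0, from -1.05 for P2rx3 to 0.57 for Chrm4.

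The nicotinic acetylcholine receptors, cation channels opened by acetylcholine, held 3 of the 5 members that fell, and these were the 3 alpha subunits among the family's 4 expressed genes. Chrna3 (ENSMUSG00000032303, chr9:55010111-55026562, minus strand, GRCm38) was at 49.1, 52.9 and 56.8 FPKM in si-NC and at 25.9, 28.1 and 38.7 FPKM in si-circRtn4. Every si-circRtn4 library was below every si-NC library. The mean went from 52.9 ± 3.86 to 30.9 ± 6.85 FPKM (SD, n = 3 each), 58.3% of the si-NC mean, a log2 difference of -0.78 (SE 0.15, adjusted p = 0.0197). Each library held 1936 to 4186 reads of Chrna3. Leaving out si-NC 2, si-NC 3, si-circRtn4 1 or si-circRtn4 2 gave adjusted p = 0.0677, 0.0607, 0.0578 and 0.0733, with log2 differences of -0.95 to -0.66 over all 6 omissions.

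Chrna5 (ENSMUSG00000035594, chr9:54980880-55007779, plus strand), an accessory alpha subunit that joins alpha3 channels, was at 2.06, 2.66 and 2.45 FPKM in si-NC and at 1.10, 1.07 and 1.21 FPKM in si-circRtn4. Its level fell to 47.2% of the si-NC mean (2.39 ± 0.307 to 1.13 ± 0.0740 FPKM, log2 difference -0.67, SE 0.12, adjusted p = 0.0174). Without si-NC 2, si-NC 3, si-circRtn4 1 or si-circRtn4 2 the adjusted p was 0.0775, 0.0596, 0.0526 and 0.0633. Chrna7 (ENSMUSG00000030525, chr7:63098692-63212569, minus strand), which forms channels on its own, was at 3.87, 5.11 and 4.25 FPKM in si-NC and at 2.28, 2.44 and 2.14 FPKM in si-circRtn4. It stood at 51.8% of the si-NC mean (4.41 ± 0.637 to 2.29 ± 0.151 FPKM, log2 difference -0.71, SE 0.11, adjusted p = 0.0106). Chrna7 stayed past the threshold without any 1 library, at adjusted p of 0.0168 to 0.0451. It rests on 140 to 332 reads a library.

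The beta subunits, which complete alpha3 channels, did not pass the test. Chrnb2 was at 9.48 ± 0.823 FPKM in si-NC and 8.23 ± 0.516 FPKM in si-circRtn4 (log2 difference -0.18, 95% interval -0.38 to 0.02, adjusted p = 0.241). Of its exon bases 16.3% overlap Adar on the other strand, and the files do not say that reads were counted by strand. Chrnb4 was low, with 13, 12 and 14 reads in si-NC and 9, 12 and 13 in si-circRtn4 (limma-voom adjusted p = 0.769). Summed over the family, the nicotinic subunits gave 67.7, 71.5 and 73.1 FPKM in si-NC and 38.8, 41.5 and 50.5 FPKM in si-circRtn4. Chrna3 made up 72.5 to 77.8% of that sum in si-NC and 66.7 to 76.6% in si-circRtn4, and Chrnb2 11.7 to 15.1% and 15.2 to 21.7%.

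**Figure D4:**
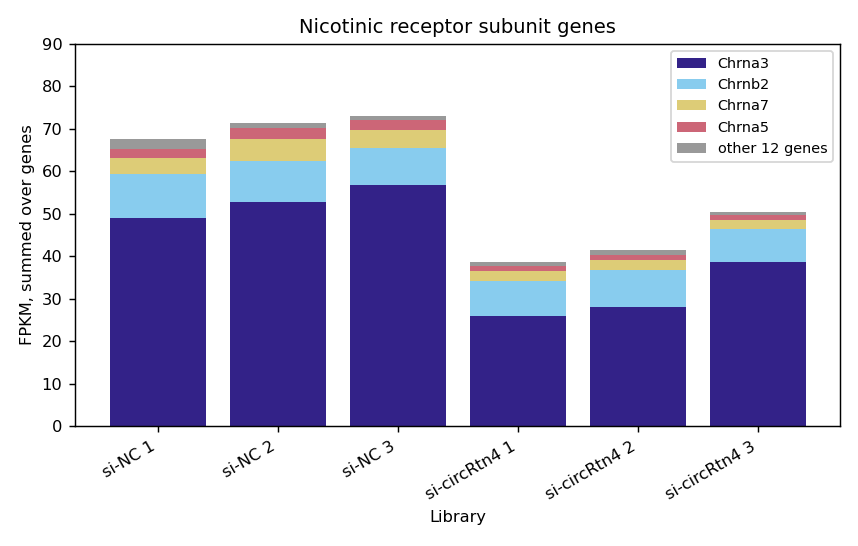
Summed FPKM of the nicotinic subunits in each library, as bars starting at 0 and split into Chrna3, Chrnb2, Chrna7, Chrna5 and the other genes of the family. The bars are 67.7 to 73.1 FPKM in si-NC and 38.8 to 50.5 FPKM in si-circRtn4, and the Chrna3 segment is the tallest in each.

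Chrna5, Chrna3 and Chrnb4 lie side by side on chromosome 9, and the nearest tested genes around them were read for comparison. Psma4, a proteasome subunit gene on the Chrna5 side, had a log2 difference of -0.09 (adjusted p = 0.571), and Ube2q2, a ubiquitin-conjugating enzyme gene beyond Chrnb4, of -0.01 (adjusted p = 0.977). Neither was called, while Chrna5 and Chrna3 between them were.

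The start regions of 4 of the called members are shown because they let the reader compare the promoters of the alpha subunits that fell with that of Chrm4, the member that rose. They are 250 bases before a RefSeq start (GRCm38.p6), read along the gene's strand, with the GC box GGGCGG or its complement and the E-box CACGTG in capitals. Chrna5 has 2 RefSeq starts, at chr9:54980630-54980879 and chr9:54981238-54981487. The Chrna3 window is chr9:55026563-55026812 (minus strand), that of Chrna7 chr7:63212527-63212776 (minus strand) and that of Chrm4 chr2:91921939-91922188 (plus strand).
Chrna3: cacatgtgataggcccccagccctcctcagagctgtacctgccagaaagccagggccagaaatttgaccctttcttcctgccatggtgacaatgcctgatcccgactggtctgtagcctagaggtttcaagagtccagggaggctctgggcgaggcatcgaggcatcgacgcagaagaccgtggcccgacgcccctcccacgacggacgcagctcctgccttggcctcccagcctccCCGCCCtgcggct
Chrna5, first start: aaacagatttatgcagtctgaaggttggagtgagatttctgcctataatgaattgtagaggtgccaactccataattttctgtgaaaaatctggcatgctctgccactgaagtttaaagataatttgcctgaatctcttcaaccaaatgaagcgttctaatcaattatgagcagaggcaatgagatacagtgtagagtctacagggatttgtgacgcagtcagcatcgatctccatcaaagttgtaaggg
Chrna5, other start: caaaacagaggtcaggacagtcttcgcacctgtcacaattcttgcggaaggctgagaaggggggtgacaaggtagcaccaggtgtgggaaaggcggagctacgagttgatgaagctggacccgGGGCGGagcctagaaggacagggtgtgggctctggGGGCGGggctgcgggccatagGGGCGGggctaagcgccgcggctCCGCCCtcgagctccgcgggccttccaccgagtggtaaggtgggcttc
Chrna7: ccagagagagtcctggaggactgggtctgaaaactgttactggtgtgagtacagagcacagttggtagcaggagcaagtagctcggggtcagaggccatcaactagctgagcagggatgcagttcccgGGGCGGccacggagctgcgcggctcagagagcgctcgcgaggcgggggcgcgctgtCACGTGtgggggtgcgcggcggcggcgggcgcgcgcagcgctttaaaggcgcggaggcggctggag
Chrm4: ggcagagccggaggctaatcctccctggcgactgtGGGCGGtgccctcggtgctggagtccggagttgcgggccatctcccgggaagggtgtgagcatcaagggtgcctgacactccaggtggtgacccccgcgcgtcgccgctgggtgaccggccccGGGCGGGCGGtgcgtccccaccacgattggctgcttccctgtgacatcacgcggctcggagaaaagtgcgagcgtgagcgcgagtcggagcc

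GC boxes were searched on both strands with overlaps counted. Chrna3 and Chrna7 had 1 each, the other Chrna5 start 4 and Chrm4 3, and the first Chrna5 start had none. GGGCGG occurs in 32.7% of 32851 mouse promoter windows of this length. CACGTG occurs in 6.02% of them and was found in Chrna7. The E-box CAGCTG, the cyclic AMP response element TGACGTCA and the TATA box TATAAA, held by 13.0%, 1.55% and 12.4% of windows, were in none of the windows printed here. The windows had 63.2% GC for Chrna3, 40.0% and 65.2% for Chrna5, 67.2% for Chrna7 and 70.0% for Chrm4, against a median of 52.4% over all windows. A matching string is a description of the sequence and not a bound site, and the members that fell and the one that rose both include windows with GC boxes.

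The serotonin-gated channel subunit Htr3a (ENSMUSG00000032269, chr9:48899213-48911099, minus strand) fell, and the serotonin Gs-coupled receptor Htr6 did not pass. Htr3a was at 24.8, 26.0 and 26.5 FPKM in si-NC and at 16.1, 19.9 and 20.8 FPKM in si-circRtn4, all below the si-NC values. The mean went from 25.8 ± 0.902 to 18.9 ± 2.50 FPKM, 73.4% of the si-NC mean (log2 difference -0.43, SE 0.10, adjusted p = 0.0406). That call is close to the threshold: without si-NC 1, si-NC 2, si-NC 3, si-circRtn4 1 or si-circRtn4 2 the adjusted p was 0.0689, 0.125, 0.111, 0.0703 and 0.0861. Under TPM scaling the limma adjusted p was 0.0572, or 0.0297 with Gm23935 left out. Htr3b, the partner B subunit on the neighbouring locus, was at 0.534 and 0.336 FPKM and was not called (limma-voom adjusted p = 0.269). Htr6 had means of 1.10 and 1.78 FPKM, a log2 difference of 0.40 (SE 0.14, adjusted p = 0.119, or 0.0609 with the replicate block). In limma-voom its adjusted p was 0.0931, and 0.0189 with the block.

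Among ATP-gated P2X channels, P2rx3 (ENSMUSG00000027071, chr2:84998583-85037462, minus strand) fell, and P2rx4 and P2rx7, channels best known from immune cells, did not. P2rx3 was at 23.7, 15.4 and 26.6 FPKM in si-NC and at 8.47, 7.90 and 14.0 FPKM in si-circRtn4. Spread within si-NC was wide, with si-NC 2 just above the highest si-circRtn4 library. The mean went from 21.9 ± 5.80 to 10.1 ± 3.37 FPKM, 46.2% of the si-NC mean (log2 difference -1.05, SE 0.25, adjusted p = 0.0403). Without si-NC 1, si-NC 3, si-circRtn4 1 or si-circRtn4 2 the adjusted p was 0.0974, 0.107, 0.118 and 0.125. P2rx7 was at 7.39 and 6.70 FPKM (log2 difference -0.13, 95% interval -0.37 to 0.12) and P2rx4 at 5.90 and 5.42 FPKM (-0.10, interval -0.34 to 0.14). The P2rx3 share of the summed P2X FPKM was 53.2 to 65.6% in si-NC and 37.5 to 52.2% in si-circRtn4. P2rx3 has 51 exon bases (1.83%) in common with Ssrp1, a gene on the other strand at 94.4 FPKM.

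The muscarinic receptor Chrm4 (ENSMUSG00000040495, chr2:91927249-91928688, plus strand), the Gi-coupled M4 receptor for acetylcholine, was the member that rose. It was at 7.04, 6.07 and 6.35 FPKM in si-NC and at 10.6, 9.06 and 10.8 FPKM in si-circRtn4, every si-circRtn4 library above every si-NC library. Its mean went from 6.49 ± 0.499 to 10.2 ± 0.967 FPKM, 156.7% of the si-NC mean (log2 difference 0.57, SE 0.09, adjusted p = 0.0120). The call was lost without si-NC 2 (0.0548). Its listed gene model is the coding length only, and each library held 126 to 227 reads of it.

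The kainate and AMPA subunits above 1 FPKM did not pass the test. Grik5 was at 36.3, 32.6 and 31.2 FPKM in si-NC and 33.2, 29.9 and 33.3 FPKM in si-circRtn4 (log2 difference -0.05, 95% interval -0.25 to 0.15). The groups overlap, and under TPM scaling the difference turns to the other sign, 0.04, but not with Gm23935 left out (-0.03). Gria2 was at 1.21, 0.981 and 1.04 FPKM against 1.23, 0.979 and 1.06 FPKM (0.01, interval -0.30 to 0.32). The groups overlap for Gria2 too. For both genes a difference anywhere within its interval could not be told from 0.

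No NMDA subunit passed the test in FPKM, and the si-NC libraries of each were spread. Grin2d, the GluN2D subunit of early neurons, was at 3.52, 2.18 and 2.42 FPKM in si-NC and at 2.10, 2.19 and 2.07 FPKM in si-circRtn4 (log2 difference -0.23, 95% interval -0.57 to 0.11). Grin1 had means of 2.29 and 2.06 FPKM (-0.10, interval -0.54 to 0.34). Grin3b, a glycine-binding subunit, went from 1.77 to 0.898 FPKM (log2 difference -0.53, adjusted p = 0.0835). Of its exon bases 32.1% overlap Tmem259, a gene on the other strand at 42.8 FPKM. How many of the Grin3b reads come from Tmem259 was not tested. In limma-voom on recovered reads Grin3b was called (log2 difference -0.93, adjusted p = 0.0383).

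The alpha2B adrenergic receptor Adra2b, Gi-coupled and the one adrenergic gene above 1 FPKM, was at 2.15, 1.36 and 1.67 FPKM in si-NC and at 1.12, 0.384 and 0.651 FPKM in si-circRtn4. The groups did not overlap. The log2 difference was -0.68 (SE 0.20) with an adjusted p of 0.0748, against -1.36 and 0.0185 in limma-voom. Adra2a, the alpha2A receptor, was lower in level, at 0.349 and 0.196 FPKM (limma-voom adjusted p = 0.169).

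Members too low for the FPKM test could still be read as recovered reads. With at least 10 reads on average, 14 members under 1 FPKM entered limma-voom, which tested 31 members in all. There 4 members rose (12.9%) and 8 fell (25.8%), against 7.05% and 5.59% of the 14484 genes tested, and 3 of those that rose and 1 of those that fell were under 1 FPKM. P2ry6, a Gq-coupled receptor for UDP, had 6, 6 and 6 reads in si-NC and 16, 22 and 28 in si-circRtn4 (log2 difference 1.76, adjusted p = 0.0118). It kept its call without any 1 library, at adjusted p up to 0.0465.

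P2ry2, a receptor for ATP and UTP, had 11, 10 and 4 reads in si-NC and 25, 27 and 18 in si-circRtn4 (log2 difference 1.52, adjusted p = 0.0346). It kept its call in 2 of the 6 fits without 1 library, with adjusted p of 0.0672 without si-NC 2, 0.129 without si-NC 3, 0.0870 without si-circRtn4 1 and 0.105 without si-circRtn4 2. Chrm3, the Gq-coupled M3 muscarinic receptor, moved opposite to Chrm4, with 29, 36 and 43 reads in si-NC and 16, 10 and 15 in si-circRtn4 (-1.38, adjusted p = 0.0204). It kept its call in 3 of the 6, with adjusted p of 0.0582 without si-NC 2, 0.0614 without si-NC 3 and 0.0986 without si-circRtn4 2. In FPKM these are levels of 0.143 and 0.515 for P2ry6, 0.145 and 0.402 for P2ry2, and 0.399 and 0.149 for Chrm3. P2rx1, a P2X channel of smooth muscle and platelets, had 18, 17 and 11 reads in si-NC and 5, 9 and 6 in si-circRtn4 (-1.15, adjusted p = 0.0876, or 0.0442 with the replicate block). Summed P2Y FPKM was 0.365, 0.432 and 0.267 in si-NC and 0.897, 1.01 and 1.01 in si-circRtn4.

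**Figure D5:**
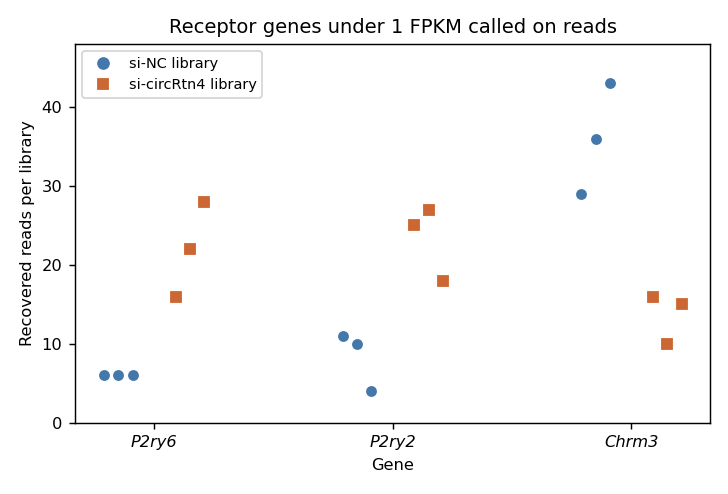
Recovered reads per library of P2ry6, P2ry2 and Chrm3, members under 1 FPKM called by limma-voom, with 3 si-NC and 3 si-circRtn4 libraries each. P2ry6 and P2ry2 have more reads in every si-circRtn4 library, and Chrm3 has fewer.

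The small RNAs of the study were set beside the 3′ UTRs of these genes, because the guide strand of an siRNA and a microRNA bind through bases 2 to 8, the seed. The si-circRtn4 sequence is given as its sense strand, with the bases facing the guide's seed in capitals, and miR-24-3p, the microRNA that the study connects with circRtn4, with its own seed in capitals.
si-circRtn4: cttcagatgagACCCTTTt
miR-24-3p: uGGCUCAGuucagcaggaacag

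The seed site of the guide, ACCCTTT, lies in the 3′ UTR of 13.1% of 10691 tested genes and of 1 of 16 tested members with a 3′ UTR (6.25%), and in none of the 5 that fell. That of miR-24-3p, CTGAGCC, lies in 21.6% of genes and in 3 of 16 members (18.8%), Grik5, P2rx7 and Grin1, and again in none of the 5. The 3′ UTR read for every gene was the longest annotated stretch after a stop codon in any of its transcripts. For Grik5 that stretch is spliced across the gene, with sites at chr7:25046217-25046223 and chr7:25022607-25022613. Grik5 is on the minus strand and ends at chr7:25009849, so its other transcripts need not hold these sites in their 3′ UTR. Chrm4 could not be read, having no annotated 3′ UTR. A site of P2rx7 for the microRNA (chr5:122682692-122682698) is printed, to show the match, as the 7 bases in capitals with 8 bases on each side, from GENCODE M21 transcripts (GRCm38). The site lies 1591 bases before the end of the stretch read, while the gene runs to chr5:122691432, so other P2rx7 transcripts may lack it.
P2rx7, miR-24-3p site: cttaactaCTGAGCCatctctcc

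The proteins that anchor, assemble and desensitise these receptors were read from a list of 72 genes, of which 42 were tested. Of these 1 rose (2.38%) and 4 fell (9.52%), against 4.36% and 4.82% of all genes tested, with a median log2 difference of -0.02 and 21 genes on each side of 0. With the replicate block 3 rose and 7 fell, while of all 12749 genes in that fit 1185 rose and 1243 fell. Grk5, a kinase that desensitises G-protein-coupled receptors, fell from 13.6 ± 1.35 to 6.20 ± 0.816 FPKM (log2 difference -1.02, SE 0.11, adjusted p = 0.00301). Shisa7, an accessory protein of GABA-A and AMPA channels, fell from 8.82 to 4.10 FPKM (-0.94, adjusted p = 0.00477). Both stayed past the threshold in all 17 alternative fits.

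Cnih2, an AMPA receptor export factor, fell from 7.12 to 4.91 FPKM (adjusted p = 0.0210), and Arrb1, the beta-arrestin 1 that ends signalling of G-protein-coupled receptors, from 11.0 to 8.25 FPKM (0.0262). Dlg3, the scaffold SAP102 of NMDA receptors, rose from 1.67 to 3.24 FPKM (log2 difference 0.68, adjusted p = 0.0345). Cnih2 lost its call without si-NC 2 (0.0871), si-circRtn4 1 (0.0703) or si-circRtn4 3 (0.0640) and in limma-voom (0.0767). Arrb1 kept its call only when the library left out was si-circRtn4 3, with adjusted p of 0.0590 to 0.0853 without any other library, and Dlg3 only when it was si-NC 1, with 0.0651 to 0.0984 otherwise. The 5 genes of the list with the highest levels among those not called were Grina (316 and 332 FPKM), Hap1 (135 and 102 FPKM), Ubqln1 (68.3 and 65.9 FPKM), Gabarap (63.6 and 69.5 FPKM) and Cacng7 (55.3 and 53.1 FPKM), given as si-NC and si-circRtn4 means. Of these, Hap1, a huntingtin-associated transport protein, was lower in every si-circRtn4 library and passed with the replicate block (adjusted p = 0.0209, against 0.0549 without it). Gabbr1, a GABA-B receptor subunit outside the symbol rule, was at 12.6 and 12.2 FPKM, and Gabbr2, the other, averaged 0.0017 FPKM.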

How the data were processed

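RNA sequencing of 6 N2a libraries was read, 3 si-NC and 3 si-circRtn4, with group and number taken from the labels and matched to column names. FPKM per gene was deposited together with gene length, and 6 further sample columns in the table were not used. The submitters' processing notes name Bowtie 0.12.2 and the builds mm8 and mm9, while 98.11% of the genes have GENCODE M21 (GRCm38) coordinates, which are printed. The counting tool and library strandedness are not given in the sources used here.

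FPKM times gene length, divided by its smallest value above 0 in each library, was a whole number in 100% of values (tolerance 0.01). That smallest value was taken to be 1 read, an assumption behind every recovered read count. The main test was limma (3.58.1, R 4.3.3) on log2(FPKM + 1) with a mean-variance trend, for genes averaging 1 FPKM or more, adjusted by Benjamini-Hochberg. A fold change on that scale understates the change of low genes. Because FPKM is not a count, limma-voom on the recovered reads (mean of at least 10) was an alternative. Other alternatives changed the filter, the pseudocount, the scaling or the variance model, or left out a library. Pipelines were tested on simulated reads whose spread between libraries was set rather than taken from these data. There limma on log2(FPKM + 1) recovered 33% of 1.5-fold and 90.5% of 2-fold changes, with 6.35% of its calls false. For limma-voom on at least 10 reads these were 72.6%, 94.8% and 4.17%.

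Deviations of same-numbered libraries correlated at 0.331, 0.190 and 0.226, and of differently numbered ones at 0.00913 or less, so the numbers were taken to pair libraries and the block was fitted as an alternative. The pairing comes from the data, not from the labels. Named members are those at 1 FPKM or more, those under it called by limma-voom, and of the receptor-associated list those called and the 5 highest others. Some members enter the counts but are not reported here singly. Other members were named after their values were seen, as partner subunits or neighbours of these. The members and lists were chosen with earlier results of these data known. Promoters and miR-24-3p are from RefSeq, and the siRNA from the study's oligonucleotide list. Of 21 members looked up, 16 had a RefSeq promoter.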

Additional observations from a re-analysis of the deposited data

How the results depend on the processing

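Of the single-gene values recomputed, 309 kept their direction and side of the threshold, 55 lost and 6 gained a call, and 8 changed sign. All-gene counts of 556 higher and 615 lower became 210 and 261 with no filter, 972 and 393 with TPM, and 1185 and 1243 with the replicate block; limma-voom gave 902 higher on the same genes and 1021 on genes of at least 10 reads. Leaving out 1 library gave 163 to 407 higher and 217 to 419 lower. Members higher (1) became 4 in limma-voom at 10 reads, and 0 to 1 without 1 library. Members lower (5) became 3 at a filter of 0.1 FPKM, 0 with no filter, 8 in limma-voom and 3 without a variance trend, and 1 to 5 without 1 library; under the replicate block they were 7. Receptor-associated genes higher (1) became 0 at either lower filter, 3 with the block and 0 to 1 without 1 library, and those lower (4) became 2 with no filter, 7 with the block and 2 to 4 without 1 library. The filters test more genes. TPM computed without the gene Gm23935 gave 592 genes higher and 538 lower. What caused the other shifts was not tested. Expressed members (17) became 32 at 0.1 FPKM and 31 at 10 reads. Log2 differences near 0 changed sign for Grik5 (0.0386 with TPM, -0.10 to 0.00837 without 1 library), Grin1 (-0.22 to 0.0583 without 1 library) and Gria2 (-0.0177 with quantile scaling, -0.0399 to 0.0548 without 1 library). In limma on FPKM the block changed the calls of Adra2b and Grin3b and of no other member, and in limma-voom those of Htr6 (0.0931 to 0.0189) and P2rx1 (0.0876 to 0.0442). With no filter, Chrna3 (adjusted p = 0.0782), Chrna5 (0.0717), Chrna7 (0.0516), Htr3a (0.108) and P2rx3 (0.142) lost their calls, and this filter admits genes listed at 0 in most libraries. Members averaging under 10 reads were left out of limma-voom by choice and entered only the fits with lower filters.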

Other observations

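The symbol rule also met 2 non-coding genes, which are not members. Chrna1os, a transcript beside the muscle-type alpha1 subunit gene, had 4, 5 and 4 reads in si-NC and 12, 10 and 8 in si-circRtn4, too few for either test. Grin1os, which overlaps Grin1 on the other strand, had 14, 13 and 18 reads in si-NC and 8, 9 and 5 in si-circRtn4 (limma-voom log2 difference -1.01, adjusted p = 0.123). Grin1 itself is described above, and 13.5% of its exon bases lie under Grin1os. Among the receptor genes under 10 reads, Chrm1, the M1 muscarinic receptor, had 15, 11 and 9 reads in si-NC and 4, 1 and 0 in si-circRtn4, and Glra4, a glycine receptor subunit, 8, 11 and 8 against 3, 5 and 2. The groups do not overlap for either (two-sided exact permutation p = 0.1 each, the smallest possible). Both were too low for the FPKM test and for limma-voom, and they were chosen after their values were seen.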
